A study of Rattus norvegicus with 60 samples.

Results

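The 30 sham control arrays of a rat retinal ischemia-reperfusion (IR) study, out of 60 arrays in all, were compared by the time at which the retina was collected. The early arrays are the 0h and 2h groups (12 arrays), and the late arrays are the 24h, 48h and 7d groups (18 arrays), with 6 rats and 6 arrays in each group. The groups came from the sample labels and not from measured values. All rats were male Long Evans hooded rats of 250 to 300 g, and whole retinas were used. Sham surgery comprised the anesthesia, the eye drops and the needle cannulation of the anterior chamber that IR rats also had, with no raised intra-ocular pressure. The sham rats therefore carry the time after surgery without ischemia, and an age is not given in the sources used here. Rats without surgery were not analysed here, so the response to surgery and other changes with time cannot be told apart. Each array held the RNA of 1 rat, so the p-values rest on the spread between arrays of different rats. Where the slide is left out of the fit, they take the arrays as independent, although arrays of the same slide were correlated (0.29 in limma).

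MicroRNAs (miRs) are short RNAs that bind messenger RNAs through their seed, bases 2 to 8, and lower the output of those messages. The retina is known for the cluster of miR-183, miR-96 and miR-182 in photoreceptors and for miR-124 and miR-9 of neurons. Some retinal miRs are known to turn over fast, among them the miR-183 cluster, which follows light, and miR-132 and miR-212, which follow neuronal activity. miR-21 is known to rise in injured and inflamed tissue, and miR-210 under low oxygen.

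Of the 350 rat miRs on the array, 242 were detected on at least 1 sham control array and 108 on none. A miR was tested where 1 or more sham control groups had it detected on each of their 6 arrays, which held for 156, and 103 were detected on all 30 arrays. Levels are log2 of the total signal of a miR after scaling, in which the 75th percentile of the 57 miRs found on all 60 arrays was made equal between arrays, with a floor of 2.63. Differences are late minus early, as the mean of the 3 late groups minus the mean of the 2 early groups, on the log2 scale.

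Mature sequences are shown for the miRs on which the results turn, 5′ to 3′, with the seed in capitals. They are from RefSeq (rat assembly GRCr8) and were matched by name, with 127 of the 156 tested miRs matched. The first set holds the photoreceptor cluster and the miRs with the smallest p in each direction.
miR-183: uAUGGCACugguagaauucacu
miR-96: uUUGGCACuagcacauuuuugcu
miR-182: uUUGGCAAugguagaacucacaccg
miR-129: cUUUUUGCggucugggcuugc
miR-34a: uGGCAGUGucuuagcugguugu
miR-210: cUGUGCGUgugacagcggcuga
miR-132: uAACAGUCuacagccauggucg
miR-21: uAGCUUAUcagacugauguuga
miR-218: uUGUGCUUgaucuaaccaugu
The second set holds miRs that share a seed, shown because 1 of each group passed the test and its seed partners did not.
miR-29b: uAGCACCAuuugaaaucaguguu
miR-29c: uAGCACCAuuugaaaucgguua
miR-29a: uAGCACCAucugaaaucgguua
miR-107: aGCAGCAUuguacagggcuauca
miR-103: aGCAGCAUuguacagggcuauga
miR-23a: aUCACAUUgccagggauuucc
miR-23b: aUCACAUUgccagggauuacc
The array annotation places the probed part of miR-129 at chr3:78648989-78649003 (minus strand), that of miR-21 at chr10:74864553-74864572 (minus strand) and that of miR-183 at chr4:57075156-57075174 (minus strand), all on rat build rn4.

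The tissue label was set against marker miRs. The retinal markers miR-124, miR-183, miR-96, miR-182, miR-9, miR-181a and miR-204 were detected on all 30 arrays. The summed level of the 7 retinal markers was 14.7 to 15.0 on early arrays and 14.6 to 15.0 on late arrays. Of the erythrocyte markers, miR-451 was detected on 1 late array and miR-144 on none. Of the 4 leukocyte markers, miR-142-3p and miR-142-5p were detected on no sham control array, miR-223 on 3 early and 5 late arrays and miR-150 on 6 early and 12 late arrays, and their summed level ran from 4.81 to 5.78 early and from 4.74 to 5.45 late. The surface markers miR-205, miR-203 and miR-200c were not detected. miR-31 was detected on 5 early and 12 late arrays, with means of 3.20 early and 3.61 late, and miR-184, which cornea and lens are known to hold, was detected on 8 early and 13 late arrays at up to 7.61 and 10.3. The summed level of the 5 surface epithelium and lens markers reached from 5.20 to 7.83 early and from 4.95 to 10.3 late. The part of these other cells in the differences was not tested. In whole retina, fewer cells of a type and less RNA per cell cannot be told apart.

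The arrays differed in how they were made, and this stands beside every comparison of early with late. The sham control arrays lay on 6 slides, and only 2 of these held early and late sham arrays together. Slide 2 held 5 early arrays, slides 3 and 6 held 6 late arrays each, slide 5 held 4 early arrays and 1 late array, slide 8 held 3 early and 4 late arrays, and slide 9 held 1 late array. A fit with the slide as a block therefore links late to early arrays through slides 5 and 8 alone. Differences among the late groups on slides 3 and 6, and between 0h and 2h on slide 2, enter its estimate as well. All 3 scans held both early and late arrays. Before scaling, the late arrays were brighter. The log2 75th percentile of signal over the 350 miRs was 6.07 ± 0.51 on the early arrays (SD, n = 12) and 6.50 ± 0.28 on the late arrays (SD, n = 18), a difference of 0.43 (p = 0.00574, adjusted p = 0.0171 over 4 array measures, two-sided permutation test). By group it was 6.32 ± 0.50 at 0h, 5.82 ± 0.42 at 2h, 6.37 ± 0.35 at 24h, 6.45 ± 0.18 at 48h and 6.70 ± 0.18 at 7d (SD, n = 6 each). Within scans 1, 2 and 3 the differences were 0.13, 0.81 and 0.36 (exact permutation p = 0.617, 0.00303 and 0.214). On slide 8 the difference was 0.27 (exact permutation p = 0.343). The number of detected miRs was 153.7 ± 37.7 early and 169.3 ± 34.1 late (permutation p = 0.247), with means of 211.3 early and 217.4 late within scan 3, which held slides 8 and 9, and of 144 and 149 within scan 1. In scan 2 the means were 122 and 153, a difference of 30.7 (exact permutation p = 0.00909). The arrays of 2 rats stood apart from the other arrays of their groups. The SD of the differences in log2 level from the median of the other 5 arrays was 0.97 for 48h replicate 1 and 0.71 for 0h replicate 1, against 0.18 to 0.46 for the other 28 arrays. On 48h replicate 1, on slide 3, miR-183 lay at 12.07 against 12.77 to 12.93 on the other 48h arrays and miR-182 at 10.82 against 9.66 to 9.81. On 0h replicate 1, on slide 2, miR-96 lay at 11.46 against 12.33 to 12.54 on the other 0h arrays and miR-21 at 7.50 against 8.11 to 8.20. Values without both arrays are given for the main count and for some of the named miRs whose call they change.

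**Figure D1:**
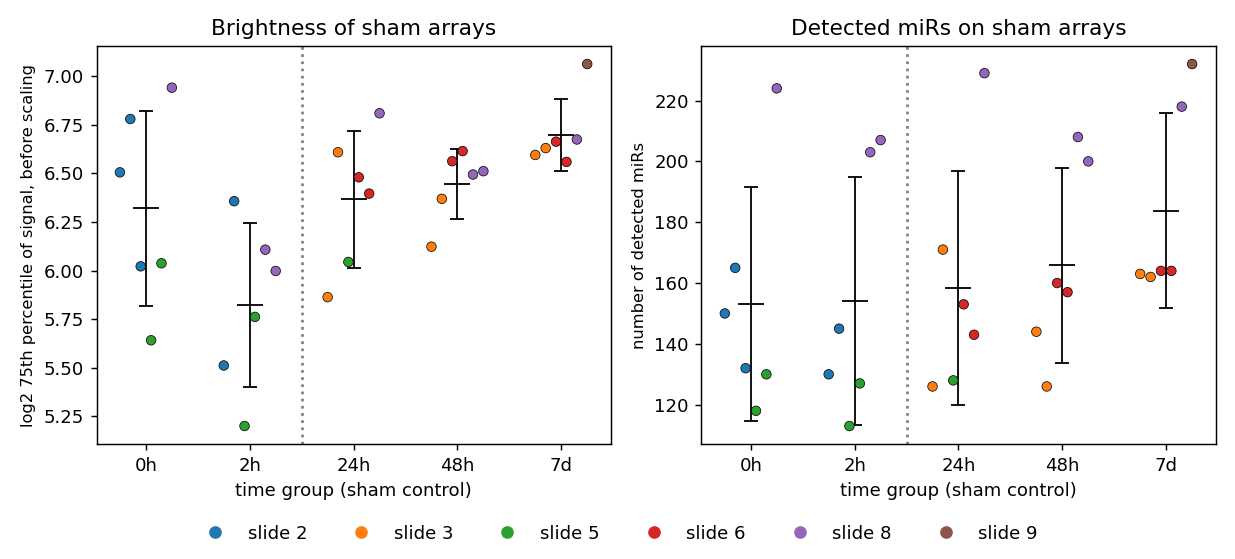
Brightness (left, log2 75th percentile of signal over 350 miRs before scaling) and number of detected miRs (right) on each of the 30 sham control arrays, by time group. Points are arrays, coloured by slide, and bars are the mean ± SD of 6 arrays. The dotted line parts early from late; the 2h arrays are the dimmest on average (5.82), and the arrays of slides 8 and 9 hold 200 or more detected miRs each.

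Without regard to the slide, 36 of the 156 miRs (23.1%) differed between late and early sham control retinas, 18 of them higher (11.5%) and 18 lower (11.5%) at the late times (limma, adjusted p at most 0.05). Of the 18 higher, 9 met the detection filter through late groups alone, and so had to be high in a late group to be tested. Differences were small. None of the 156 (0%) reached a 2-fold change together with the adjusted p, and the 36 ran from a fall of 0.49 (miR-328) to a rise of 0.75 (miR-20b-5p), with a median size of 0.28. Without the 2 arrays that stood apart 56 miRs passed, 28 in each direction, and 34 of the 36 were among them. Leaving out 48h replicate 1 alone gave 67. The split by direction moved with the scaling. With no normalization between arrays the median of the 156 differences was 0.44, and 99 miRs rose and 0 fell. Background correction by normexp gave a median of -0.27, with 1 rise and 60 falls, and scaling over the miRs that all 30 sham arrays detected gave 41 rises and 6 falls. Directions below therefore hold relative to the median miR of the scaling used, which was 0.03. For none of the 156 (0%) did the late arrays lie wholly on 1 side of the early arrays. With the slide as a block, 0 of the 156 (0%) passed the adjusted p in limma (4 at an unadjusted p under 0.05, smallest adjusted p = 0.404). With the slide as a random block, likewise 0 passed (30 at an unadjusted p under 0.05, smallest adjusted p = 0.203). Array brightness as a covariate left 2 of the 156 (1.28%), miR-21 and miR-136. Of these, miR-136 met the detection filter through late groups alone, so its rise is given as a value alone. All 36 miRs kept the sign of their difference within scan 1 and within scan 2, and 34 did in all 3 scans, whereas 24 of the 36 kept it with the slide as a block and 28 on slide 8 alone. The 36 were picked from these same arrays, so kept signs are partly set by the choice. In scan 1 the early arrays lay on slide 2 and the late arrays on slide 3. In scan 2 all late arrays but 1 lay on another slide than the early arrays, so scans 1 and 2 do not part time from slide. The median size of the 36 differences was 0.07 with the slide as a block, and each of the 36 was smaller than without it. As the 36 were picked by their differences without the slide, smaller sizes in another fit are partly set by the choice. Over all 156 miRs, 94 kept their sign with the slide as a block and 93 on slide 8, and the median standard error rose from 0.09 to 0.13. For 17 of the 36, the 95% interval with the slide as a block left out the difference found without it, a count that is also partly set by the choice. The 4 miRs at an unadjusted p under 0.05 in that fit were miR-27a (0.27), miR-153 (0.59), miR-344-3p (-0.23) and miR-363 (-0.73), none of them among the 36.

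**Figure D2:**
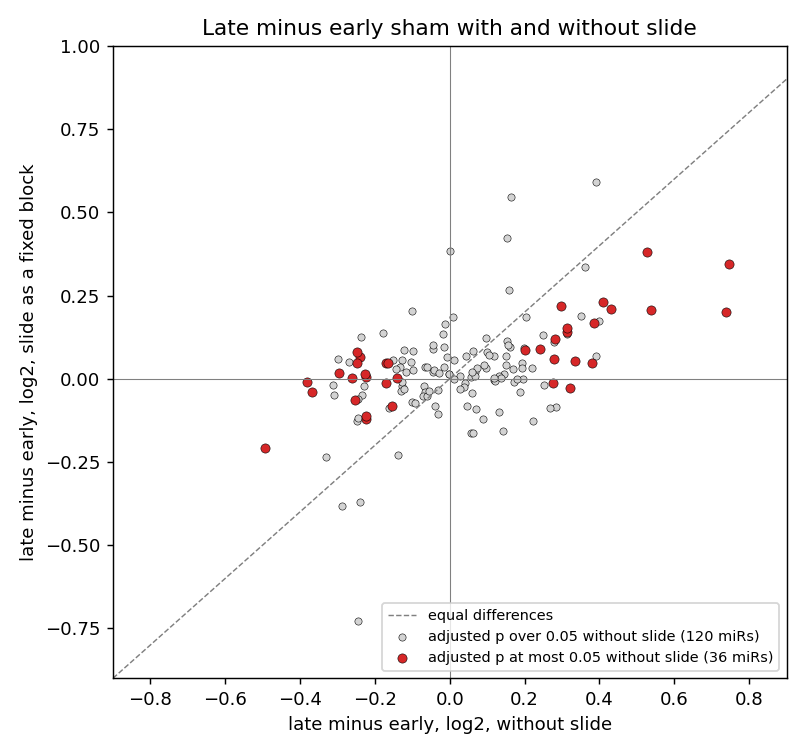
Late minus early difference (log2) of the 156 tested miRs without the slide (horizontal) and with the slide as a fixed block (vertical); red points are the 36 miRs that passed the adjusted p when the slide was left out of the fit, and the dashed line marks equal differences. All 36 red points lie nearer to 0 on the vertical axis than on the horizontal axis, and they were picked by the fit on the horizontal axis.

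The miR with the smallest p was miR-129, a brain and retina miR, which was lower at the late times. Its level on the 12 early arrays had a minimum of 8.83, a median of 9.23 and a maximum of 9.49. On the 18 late arrays these were 8.49, 8.79 and 9.43. In 16 of the 18 late arrays it lay below the early median, although the groups overlapped. The difference was -0.38 (SE 0.08, adjusted p = 0.00695 by limma), which is a 1.30-fold fall, and the group means were 9.16 at 0h, 9.26 at 2h, 8.81 at 24h, 8.96 at 48h and 8.72 at 7d. The same miR read differently by slide. The 5 early arrays of slide 2 had a mean of 9.23 and the late arrays of slides 3 and 6 had means of 8.80 and 8.74. On slide 5, the single late array lay at 9.31, within the range of the 4 early arrays there (9.21 to 9.49), and on slide 8 the 3 early and 4 late arrays had means of 8.98 and 8.96. Blocking on slide gave a difference of -0.01 (SE 0.11). Slide 5's late array belongs to the 24h group, and its 24h companions on slides 3 and 6 read 8.49 to 8.82.

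miR-34a, a p53-linked miR known from aging and cell death, was also lower late. It ran from 6.90 to 7.41 on the early arrays (median 7.18) and from 6.68 to 7.22 on the late arrays (median 6.92). The difference was -0.26 (SE 0.06, adjusted p = 0.00695 by limma), and 17 of 18 late arrays lay below the early median. On slide 5 the late array had 7.22 and the 4 early arrays 7.18 to 7.41. On slide 8 the means were 6.98 early and 7.01 late, and with the slide as a block the difference was 0.00 (SE 0.07). miR-210, the hypoxia-linked miR, ran from 9.004 to 9.54 early (median 9.30) and from 8.59 to 9.85 late (median 8.88). Its difference was -0.37 (SE 0.09, adjusted p = 0.00916 by limma) and was -0.41 (adjusted p = 2.23e-04 by limma) without the 2 arrays that stood apart, 1 of which, 48h replicate 1, held the highest late level. The slide block gave -0.04 (SE 0.14).

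The miRs known to turn over with light or activity were lower late or did not pass. miR-183 ran from 12.75 to 13.15 on the early arrays (median 13.02) and from 12.07 to 13.11 on the late arrays (median 12.78), and 17 of the 18 late arrays lay below the early median. It fell by 0.25 (SE 0.07, adjusted p = 0.0136 by limma), whereas with the slide as a block its difference had the opposite sign, at 0.05 (SE 0.10). On slide 5 the late array lay at 13.11, within the 12.99 to 13.13 of the early arrays. Its cluster partners did not pass. The difference was 0.15 (SE 0.09, adjusted p = 0.202 by limma) for miR-96 and -0.07 (SE 0.08, adjusted p = 0.499 by limma) for miR-182. The value for miR-96 was 0.08 without 0h replicate 1 alone and 0.11 without both arrays that stood apart. Without the 2 arrays that stood apart, miR-182 had a difference of -0.13 (adjusted p = 0.00958 by limma). miR-132 ran from 6.06 to 6.37 early (median 6.18) and from 5.85 to 6.19 late (median 6.03), a difference of -0.17 (SE 0.04, adjusted p = 0.00916 by limma) that was -0.01 (SE 0.06) with the slide as a block. miR-212, which shares its seed and its precursor cluster, had -0.09 (SE 0.10, adjusted p = 0.499 by limma).

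Among the miRs that were higher late, miR-21 had the smallest p. It ran from 7.50 to 8.20 on the early arrays (median 8.12) and from 8.03 to 8.76 on the late arrays (median 8.37). In 16 of the 18 late arrays it was above the early median. The group means were 8.04 ± 0.27 at 0h, 8.09 ± 0.09 at 2h, 8.50 ± 0.19 at 24h, 8.27 ± 0.21 at 48h and 8.36 ± 0.09 at 7d (SD, n = 6 each), so the 24h group was highest. Its difference was 0.31 (SE 0.07, adjusted p = 0.00695 by limma), a 1.24-fold rise. Blocking on slide gave 0.14 (SE 0.11, 95% interval -0.09 to 0.37). On slide 5 the late array lay at 8.33 and the 4 early arrays at 8.12 to 8.18. On slide 8 the 3 early arrays lay at 7.96 to 8.11 and the 4 late arrays at 8.03 to 8.41, which overlap. The lowest early array, 0h replicate 1 at 7.50, is 1 of the 2 arrays that stood apart, and without both the difference was 0.26 (adjusted p = 0.00273 by limma). With brightness as a covariate it was 0.33 (adjusted p = 0.0458 by limma).

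miR-218, a miR of motor and retinal neurons, ran from 4.11 to 5.41 early (median 5.17) and from 4.73 to 5.75 late (median 5.56). Its difference was 0.43 (SE 0.10, adjusted p = 0.00916 by limma), and 0.21 (SE 0.17) with the slide as a block. miR-29b, whose family is known to lower collagens, ran from 9.39 to 10.52 early (median 10.28) and from 10.04 to 10.79 late (median 10.51). The rise of 0.30 (SE 0.08, adjusted p = 0.0136 by limma) was uneven: the 48h mean of 10.22 lay next to the 0h mean of 10.24, and the 24h and 7d means were 10.56 and 10.64. The slide block gave 0.22 (SE 0.15). miR-7a, a neuroendocrine miR, ran from 5.51 to 5.96 early and from 5.44 to 6.32 late, with a difference of 0.27 (SE 0.07, adjusted p = 0.0108 by limma). Its difference was -0.01 (SE 0.11) with the slide as a block and -0.10 on slide 8, where it had the opposite sign.

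**Figure D3:**
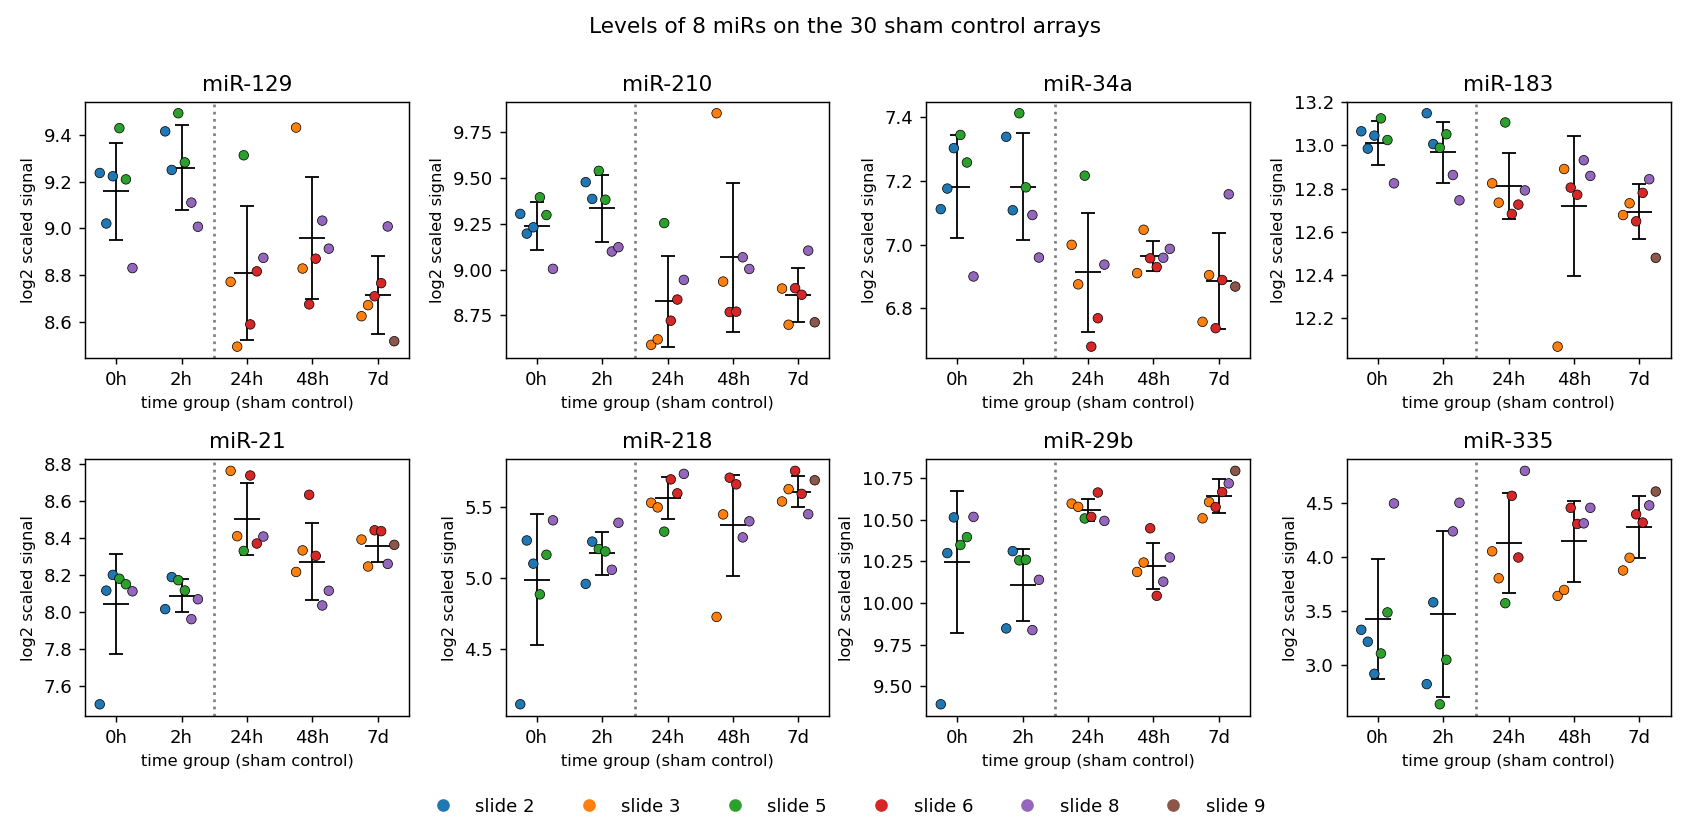
Log2 scaled signal of 8 miRs on the 30 sham control arrays by time group; points are arrays coloured by slide, and bars are the mean ± SD of 6 arrays. For miR-129, miR-210, miR-34a and miR-183 the single late array of slide 5 (24h, green) sits nearer to the early arrays of its slide than to the other 24h arrays, and the early arrays of slide 8 (purple) are among the lowest early arrays.

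The detection filter favoured miRs that were higher late. Of the 53 tested miRs not detected on all 30 arrays, 42 met it through late groups alone, 11 through early and late groups and 0 through early groups alone. Of the 10 among them that passed, all higher late, 9 met it through late groups alone and only miR-101b through both, so those 9 had to be high in a late group to be tested, and their rises are given as values alone. Among the 103 miRs detected on all 30 arrays, where the filter made no such choice, 26 passed, 8 higher and 18 lower. miR-335 met the filter through the 7d group alone. It was detected on 5 of 12 early and 14 of 18 late arrays, with levels of 2.63 to 4.50 early (median 3.27) and 3.57 to 4.80 late (median 4.31). All 18 late arrays lay above the early median, and the difference was 0.74 (SE 0.19). On slide 8 the early mean was 4.41 and the late mean was 4.51, while the early arrays of slides 2 and 5 had means of 3.17 and 3.07. The slide block gave 0.20 (SE 0.15). miR-136 and its partner strand miR-136*, both of the imprinted chromosome 6 cluster, had differences of 0.53 (SE 0.16) and 0.39 (SE 0.10). miR-136 was detected on 10 early and 18 late arrays, with an early minimum of 3.23 on 0h replicate 1. Its difference was 0.72 with brightness as a covariate and 0.38 (SE 0.27) with the slide as a block. miR-148b-3p and miR-219-5p, which met the filter through late groups alone, had differences of 0.33 and 0.38. miR-101b (0.28), which met it through both, passed. In the other direction none of the 53 passed, and the smallest adjusted p was 0.0588 for miR-344-3p (-0.33). Without the 2 arrays that stood apart the adjusted p was 0.0346 for miR-344-3p (-0.37) and 0.0486 for miR-378* (-0.28, against -0.25 with them). Of the remaining named miRs detected on all 30 arrays, miR-301a (0.24), miR-652 (0.31), miR-23a (0.20) and miR-130a (0.28) rose and miR-151 (-0.24), miR-154 (-0.30), miR-328 (-0.49) and miR-107 (-0.14) fell.

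**Figure D4:**
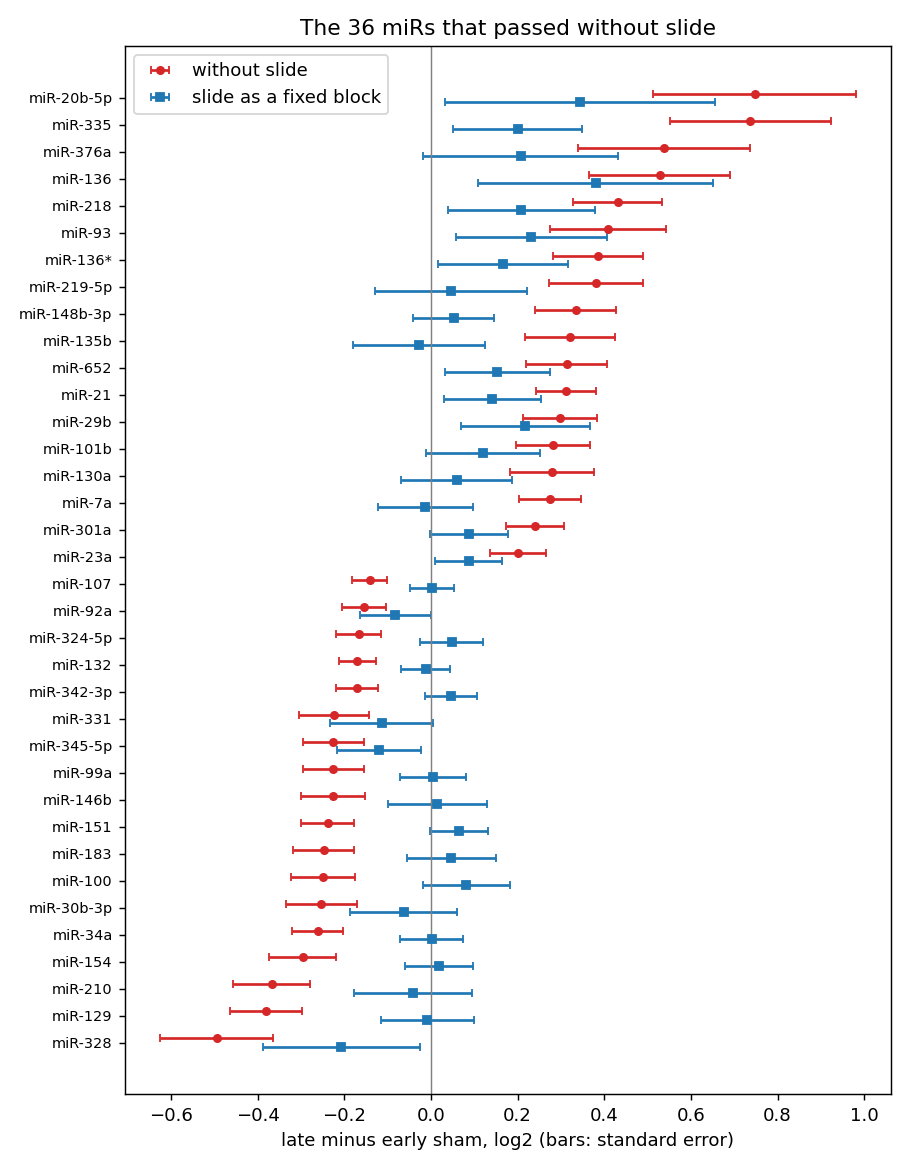
Late minus early difference (log2) with its standard error for the 36 miRs that passed, without the slide (red circles) and with the slide as a fixed block (blue squares). The blue points of the 18 miRs that fell lie between -0.21 and 0.08, and those of the risers miR-136 and miR-20b-5p lie at 0.38 and 0.34 with wide errors. Both miR-136 and miR-20b-5p met the detection filter through late groups alone.

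By miR group, the neuronal list of 12 miRs had 11 tested members, of which miR-218 and miR-7a rose, miR-129 fell and 8 did not pass, with a median difference of 0.15 against 0.03 over all 156. Here and in the lists that follow, counts stand against 36 of 156 (23.1%) that passed over all tested miRs, and nothing particular to a list is read from its count. miR-124, the neuronal miR, had early and late means of 13.61 and 13.57 (difference -0.04, adjusted p = 0.705 by limma). miR-9 had a difference of 0.20 (adjusted p = 0.22 by limma), and 0.24 (adjusted p = 0.00659 by limma) without the 2 arrays that stood apart. Of the others, miR-9* (0.15), miR-128 (-0.02), miR-138 (0.05), miR-153 (0.39), miR-129* (0.13) and miR-7b (0.15) did not pass, and miR-137 was detected on 1 early and 2 late arrays and was not tested. The partner strands miR-129 and miR-129* thus had differences of -0.38 and 0.13. miR-204 and miR-211, known from pigment epithelium and inner retina, had 0.15 and 0.14 (adjusted p = 0.182 and 0.262 by limma). Without the 2 arrays that stood apart miR-204 had 0.20 (adjusted p = 0.0216 by limma). Of the muscle list only miR-206 was tested, with 0.40 (SE 0.29, adjusted p = 0.301 by limma). It ran from 2.63 to 7.26 early and from 5.23 to 7.66 late, and without the 2 arrays that stood apart the difference was 0.03. miR-1, miR-133b and miR-499 were detected on 1, 3 and 2 early arrays and on 3, 4 and 4 late arrays and were not tested.

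The inflammation and leukocyte list had 3 tested members, of which miR-21 rose, miR-146b fell (-0.23, SE 0.07, adjusted p = 0.0243 by limma) and 1 did not pass. In the glial list miR-99a and miR-100 fell by 0.23 and 0.25, and 3 of 5 did not pass. No member of the let-7 family (8 tested), the miR-181 family (4), the miR-30 family (5) or the family of miR-15b and miR-16 (4) passed, and their median differences ran from -0.05 to 0.03. Of 17 tested miRs of the imprinted chromosome 6 cluster, miR-136 and miR-376a rose and miR-154 fell, with a median difference of 0.01. Both miR-136 and miR-376a met the detection filter through late groups alone. Of 17 star strands 1 passed, miR-136*, which also met the filter through late groups alone. miR-92a fell (-0.15) among 3 tested miRs of the miR-19 and miR-25 list, and miR-23a rose among 5 of the miR-23, miR-27 and miR-24 list. No member of the vascular (2 tested), surface epithelium and lens (1) or rodent-specific (2) lists passed. Of the 6 miRs listed as linked to brightness, chosen from these same arrays and so no independent evidence, miR-328 and miR-331 fell, and the median difference was -0.23. The medians of the neuronal, glial and brightness-linked lists were 0.07, 0.01 and -0.10 with the slide as a block.

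miRs with the same seed had like differences in some groups and unlike ones in others. miR-101b and miR-101a had 0.28 and 0.28, miR-135b and miR-135a had 0.32 and 0.25, and miR-7a and miR-7b had 0.27 and 0.15. In the miR-29 family, with its shared seed AGCACCA, miR-29b rose by 0.30, whereas miR-29c had 0.16 (adjusted p = 0.106 by limma) and miR-29a -0.12 (adjusted p = 0.12 by limma). miR-107 fell by 0.14 (SE 0.04, adjusted p = 0.0136 by limma), and miR-103, with the same seed, had 0.04 (SE 0.04, adjusted p = 0.467 by limma). miR-23a rose by 0.20 (SE 0.06, adjusted p = 0.0223 by limma), and miR-23b had -0.04 (adjusted p = 0.511 by limma). With seed AAAGUGC, miR-20b-5p and miR-93, detected on 5 and 9 of the 12 early arrays, rose by 0.75 and 0.41. Their partners miR-20a and miR-106b, detected on all 30 arrays, had -0.01 and -0.01. Like miR-135b, miR-20b-5p and miR-93 met the detection filter through late groups alone, so the rises of these miRs are given as values alone. The differences between such partners were not tested, and near-identical miRs may share signal on the array. Blocked on slide, the values were 0.22, 0.10 and 0.09 for miR-29b, miR-29c and miR-29a and 0.00 and -0.01 for miR-107 and miR-103, which lay closer. For miR-92a, miR-363 and miR-25, which share the seed AUUGCAC, they went from -0.15, -0.25 and -0.02 to -0.08, -0.73 and 0.03, which lay further apart. The value for miR-363 includes a level at the floor on the single late array of slide 5.

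GC content of the mature sequence went with the difference. Over the 127 tested miRs with a sequence, the late minus early difference had a Pearson r of -0.50 and a Spearman rho of -0.51 with GC content, as a description over miRs that share the same 30 arrays. The median difference was 0.19 over 22 miRs with a GC content under 40%, 0.00 over 55 miRs at 40 to under 50% and -0.10 over 50 miRs at 50% or more. Blocked on slide, r was -0.18, and the 3 medians were 0.05, 0.03 and 0.00. With brightness as a covariate r was -0.35. The same relation in the IR arrays, late minus early, had an r of -0.06 and a rho of -0.17.

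The groups on the same side of the boundary were compared with each other in limma. Between 2h and 0h, 0 of the 156 (0%) passed the adjusted p (4 at an unadjusted p under 0.05, smallest adjusted p = 0.96). Among 24h, 48h and 7d, 0 of the 156 (0%) passed the F test (13 at an unadjusted p under 0.05, smallest adjusted p = 0.443). The F test over all 5 groups also passed 0 of the 156 (0%), with 40 at an unadjusted p under 0.05 and a smallest adjusted p of 0.0512, shared by miR-129, miR-29b and miR-21. The fourth by this test was miR-324-5p (adjusted p = 0.0577 by limma), with a late minus early difference of -0.17 and 0.05 with the slide as a block. This count moved with the setting. It was 27 with the scan as a block and 22 without the 2 arrays that stood apart, and 1 with the slide as a block.

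The change with time in IR retinas, measured on the other 30 arrays, differed from that in sham control retinas for 74 of 159 miRs (46.5%; limma interaction, adjusted p at most 0.05). The count was 24 of the 159 when the slide was a block, 10 of them among the 36 that passed in sham control. This 10 is partly set by the choice of the 36, since a sham difference is subtracted in the test. Not all of the 24 were among the 74. miR-210, miR-154 and miR-342-3p passed only when the slide was a block (adjusted p = 0.0322, 0.0412 and 0.0322 by limma). Only 2 slides held both IR and sham control arrays, and on the other slides IR and slide cannot be told apart. Late minus early passed for 84 of the 159 (52.8%) in IR. The 4 with the smallest p of the difference were miR-21, miR-20a, miR-146b and miR-181c. miR-21 differed by 2.18 between late and early in IR and by 0.31 in sham control, so that the IR change exceeded the sham change by 1.86 (SE 0.15, adjusted p = 5.36e-15 by limma), and by 1.90 (adjusted p = 6.25e-09 by limma) with the slide as a block. miR-20a had 0.79 in IR and -0.01 in sham, miR-146b had 0.61 and -0.23, and miR-181c had -0.57 and 0.04. Each of these 3 also passed with the slide as a block. Of the 36 miRs that passed in sham control, 20 had an IR difference of the same sign, 22 had an IR difference that passed and 20 had a difference between IR and sham that passed. The last count is partly set by the choice of the 36, since the sham difference that picked them is subtracted in it. miR-129 and miR-335 had changes in IR and sham of -0.44 and -0.38 for miR-129 and of 0.74 and 0.74 for miR-335, with differences of -0.06 (SE 0.11) and 0.00 (SE 0.25). Blocked on slide, the difference was -0.36 (adjusted p = 0.0553 by limma) for miR-129 and 0.61 (SE 0.27, adjusted p = 0.0986 by limma) for miR-335, with 0.78 in IR and 0.17 in sham. miR-328 fell in sham control and had 0.59 in IR, a difference of 1.09 (SE 0.24, adjusted p = 0.000349 by limma) that did not pass when blocked on slide (0.79, SE 0.35, adjusted p = 0.0982 by limma).

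**Figure D5:**
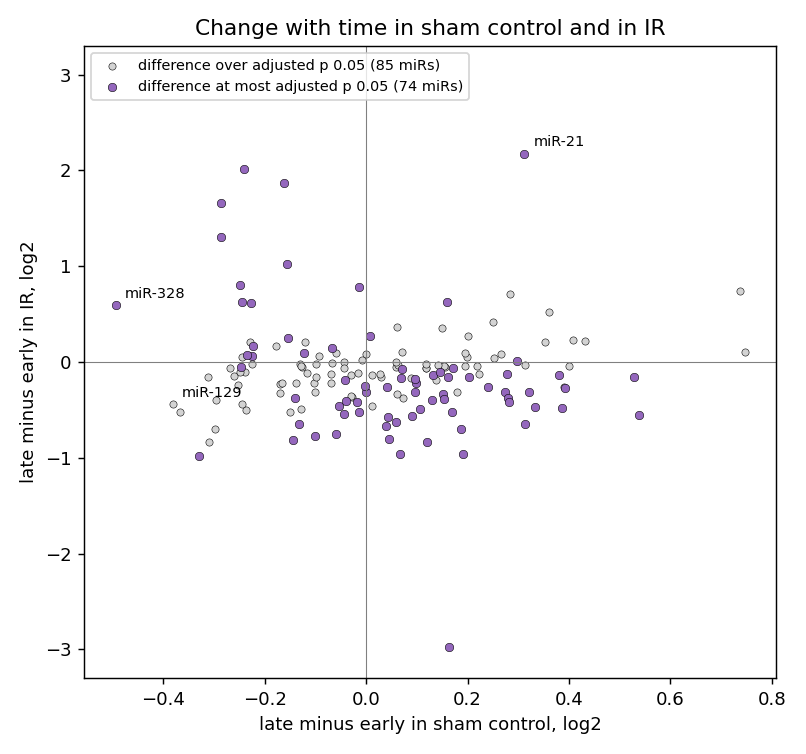
Late minus early difference (log2) in the sham control arrays (horizontal) and in the IR arrays (vertical) for 159 miRs; purple points are the 74 miRs whose IR and sham changes differed (adjusted p of 0.05 or less). The IR differences run from -2.97 to 2.18 and the sham control differences from -0.49 to 0.75, and miR-21 lies at 0.31 and 2.18.

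Time after surgery and slide cannot be told apart on slides 2, 3, 6 and 9, each of which held early or late arrays alone, and the part of the slide in the differences was not tested beyond slides 5 and 8, where 7 early and 5 late arrays lie.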

How the data were processed

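Total RNA of whole retinas (100 ng) was labeled with Cy3, and each rat's sample was put on 1 Agilent miR array for rat. The authors extracted spot intensity values with Agilent Feature Extraction, with background subtraction and spatial detrending, and the deposited intensities were not normalized between arrays. The authors also deposited a log2 table made in GeneSpring, which equals the log2 total signal minus 1 constant per array and was used as an alternative only. The total signal and detection flag per miR were used here. Signals were divided by the array's 75th percentile, taken over the 57 miRs that all 60 arrays detected, raised to a floor of 6.20 signal units (2.63 on the log2 scale) and taken to log2. The fit used limma 3.58.1 in R 4.3.3, with 5 groups on 30 arrays and Benjamini-Hochberg adjustment over 156 miRs, and with 10 groups on 60 arrays for the difference between IR and sham. Figures used matplotlib 3.10.9. Array measures were compared by permutation with 100000 resamples. The fit was tested on simulated data. Alternatives changed the probe summary, background, scaling, floor, filter, blocks, covariate and variance model, and left out each array. No sham array had a saturated spot. No 2 sham arrays were alike (SD of log2 differences at least 0.156). The number of arrays limits the precision.

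The miRs named are those with the smallest p (8 per direction among miRs detected on all 30 arrays, 6 per direction among the others, 4 by the F test, 4 by the interaction) and the members of 7 lists. Other miRs that passed were named after their values were seen. The members and lists were chosen with earlier results of these data known. Same-numbered arrays of different groups did not pair: their deviations correlated with a median r of 0.09, and 29 of 60 pairs were over 0.1.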

Additional observations from a re-analysis of the deposited data

Results flagged for a closer look

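In groups of 6 arrays, some values of named miRs lay far from the other 5, with a gap to the nearest array, as a share of the group's range, above Dixon's 95% critical value. Chance gives such a gap in about 1 in 20 groups. On 48h replicate 1 the gap was 0.725 of the range for miR-210 (high), 0.872 for miR-369-5p (low), 0.742 for miR-146b (low), 0.679 for miR-181c (high), 0.815 for miR-183 (low), 0.864 for miR-182 (high) and 0.698 for miR-9 (low). On 0h replicate 1, which was low in each, it was 0.873 for miR-21, 0.807 for miR-29b, 0.652 for miR-101b, 0.909 for miR-136, 0.806 for miR-96 and 0.631 for miR-206. On 24h replicate 3, the late array of slide 5, it was 0.800 for miR-107 (high), 0.732 for miR-369-5p (high), 0.815 for miR-363 (low) and 0.665 for miR-183 (high). Other arrays had 1 or 2 such values each. These were 0.672 for miR-154 (low) and 0.640 for miR-335 (high) on 0h replicate 6, 0.638 for miR-101b on 2h replicate 1 (low), 0.698 for miR-128 (low) and 0.741 for miR-7b (high) on 2h replicate 3, and 0.641 for miR-182 on 2h replicate 4 (low). Among the late arrays they were 0.783 for miR-136 on 24h replicate 1 (high), 0.663 for miR-344-3p on 24h replicate 6 (high), 0.680 for miR-324-5p on 48h replicate 4 (low) and 0.730 for miR-328 on 7d replicate 5 (high). Among array measures it was 0.771 for the brightest 7d array (log2 75th percentile over all miRs) and 0.701 for the dimmest 48h array (over the scaling miRs).

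The late minus early change differed between IR and sham control for 24 of the 47 named miRs that were tested. The test was the limma interaction on 60 arrays (adjusted p at most 0.05, 6 arrays per group and time). Over all tested miRs, 74 of 159 (46.5%) passed it, and nothing particular to the named miRs is read from their count. Of the named miRs, miR-21, miR-20a, miR-146b and miR-181c were picked for the smallest p of this same test. IR minus sham was 1.86 for miR-21 (adjusted p = 5.36e-15), 1.09 for miR-328 (0.000349), 1.05 for miR-378* (0.0023), 0.84 for miR-146b (2.79e-08), 0.80 for miR-20a (8.99e-09) and 0.20 for miR-183 (0.0422). It was negative for the other 18. Of those that rose in sham control, it was -0.59 for miR-7a (2.09e-05), -0.50 for miR-301a (4.11e-05), -0.29 for miR-29b (0.0123), -0.96 for miR-652 (0.000823), -0.65 for miR-130a (2.18e-05), -0.87 for miR-136* (1.99e-05), -0.80 for miR-148b-3p (0.000823), -0.51 for miR-219-5p (0.044), -0.70 for miR-101b (0.00383) and -0.69 for miR-136 (0.00528). These miRs were chosen for a rise in the same sham arrays, and IR minus sham subtracts that rise. Their negative values are therefore partly set by the choice, as are the positive values of miR-328 and miR-378*, chosen for a fall. miR-107, which fell in both, had -0.23 (0.000445). Among miRs that did not pass in sham control it was -0.65 for miR-344-3p (0.0226), -0.62 for miR-181c (5.32e-06), -0.51 for miR-128 (0.00178), -0.85 for miR-138 (3.63e-05), -0.66 for miR-153 (0.00892), -0.52 for miR-129* (0.000656) and -0.25 for miR-204 (0.0268). Blocking on slide kept 11 of the 24 calls. The 13 that no longer passed had blocked adjusted p-values of 0.632 for miR-183 and 0.972 for miR-219-5p, whose differences turned sign (-0.08 and 0.02), and of 0.225 for miR-7a, 0.43 for miR-29b, 0.0746 for miR-652, 0.0982 for miR-328, 0.438 for miR-148b-3p, 0.239 for miR-101b, 0.208 for miR-136, 0.0651 for miR-344-3p, 0.0959 for miR-378*, 0.0725 for miR-138 and 0.499 for miR-204.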

How the results depend on the processing

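The 36 miRs that passed for late minus early became 18 when log2 processed signals were averaged over probes, 61 with normexp, 99 with no normalization between arrays, 0 with the slide as a fixed block, 0 with it as a random block, 2 with brightness as a covariate, 0 within scan 1, 0 within scan 3, 56 without both arrays that stood apart and, chosen after seeing the data, 0 on slide 8 alone and 0 without those 2 arrays with the slide as a block. The other settings gave 28 to 53. No normalization shifted the median of the 156 to 0.44 and normexp to -0.27 (1 rose and 60 fell), and scaling over miRs that all 30 sham arrays detected gave 41 rises and 6 falls. The count at 2-fold, 0, became 1 with the mean over probes, 3 without normalization, 3 with a floor of 1, 2 with the authors' table and 1 within scan 2. The F test over 5 groups, 0, gave 9 with the 75th percentile over all rat miRs, 17 over those detected on all 30 sham arrays, 18 with quantile normalization, 105 without normalization, 5 with a floor of 1, 4 with the highest detection limit, 10 with only miRs detected on all 30 arrays, 9 with all 60 arrays, 1 with the slide as a fixed block, 27 with the scan as a block, 8 with a trend and robust prior, 9 with the authors' table, 22 without both arrays and 6 with the slide as well. For 2h minus 0h, 1 passed with quantile normalization and 2 without both arrays with the slide as a block. Among the late groups 1 passed without both arrays. The 74 miRs that differed between IR and sham became 149 without normalization and 24 with the slide as a block. The cause of these changes was not tested.

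The replicate numbers did not pair the samples, since 6 of 30 arrays correlated best with their own number. With the replicate number as a block 44 miRs passed late minus early (25 rose, 19 fell), and 20 passed the F test.

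Leaving out 1 array at a time gave 31 (without 0h replicate 1) to 67 (without 48h replicate 1) for late minus early, 0 to 0 at 2-fold, 0 to 0 for 2h minus 0h and 0 to 1 among the late groups (1 without 0h replicate 1). The F test over 5 groups gave 0 to 21, with 7, 6 and 11 without 0h replicates 1, 2 and 6, 6 and 6 without 2h replicates 2 and 6, 15 without 24h replicate 3, 21 and 4 without 48h replicates 1 and 3 and 12 without 7d replicate 5. miR-130a lost its call when any 1 of 9 arrays was left out, and miR-146b without 2h replicate 3. Of the named miRs that did not pass, miR-344-3p passed without any 1 of 7 arrays, miR-431 of 3 and miR-378* and miR-153 of 2, miR-369-5p, miR-182, miR-9, miR-9* and miR-204 without 48h replicate 1, and miR-7b without 2h replicate 3. The difference in detected miRs ran from 12.0 to 22.1, that in brightness from 0.35 to 0.51 and that in the 75th percentile of the scaling miRs (0.44) from 0.36 to 0.51. Within scan 2 the detected miRs differed by 30.7, brightness by 0.81 (exact permutation p = 0.00303) and the scaling percentile by 0.83 (exact permutation p = 0.00606). Brightness differed by 0.13, 0.36 and 0.27 and the scaling percentile by 0.13, 0.36 and 0.24 within scan 1, within scan 3 and on slide 8, none with an exact permutation p under 0.05.

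Signs turned for named miRs. With normexp the differences were -0.15 for miR-218, -0.18 for miR-7a, -0.14 for miR-301a, -0.0415 for miR-652, -0.16 for miR-23a, -0.27 for miR-335, -0.33 for miR-136*, -0.28 for miR-148b-3p, -0.33 for miR-219-5p, -0.24 for miR-101b and -0.18 for miR-136. Without normalization they were 0.0573 for miR-129, 0.18 for miR-34a, 0.0709 for miR-210, 0.27 for miR-132, 0.20 for miR-151, 0.14 for miR-154, 0.30 for miR-107, 0.27 for miR-324-5p, 0.42 for miR-20a, 0.21 for miR-146b, 0.19 for miR-183, 0.37 for miR-182, 0.39 for miR-124 and 0.42 for miR-128. Blocking on slide gave -0.0127 for miR-7a, 0.00205 for miR-34a, 0.0653 for miR-151, 0.0184 for miR-154, 0.00258 for miR-107, 0.0485 for miR-324-5p, 0.0147 for miR-146b and 0.0471 for miR-183, and without both arrays as well -0.0163, 9.0e-05, 0.0673, 0.0165, 0.00431, 0.0504, 0.0145 and 0.0455 in that order. On slide 8 they were -0.0967 for miR-7a, 0.0261 for miR-34a, 0.0686 for miR-151, 0.0455 for miR-324-5p and 0.0453 for miR-183. Within scan 3 they were -0.0123 for miR-7a and 0.0485 for miR-324-5p.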
